A study of Mus musculus with 65 samples.

Results

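ERVB elements are mouse endogenous retroviruses of the ERVK family, the beta-retrovirus-like branch of the long terminal repeat (LTR) elements. The members here were all rows of the deposited repeat count table that are annotated as ERVK and whose name begins with ERVB. The rule found 7996 copies among 3725827 rows, or among 319317 ERVK copies, in 21 of the 283 ERVK subfamilies. Of these copies, 5122 belong to 13 LTR subfamilies and 2874 to 8 internal subfamilies, whose names end in "-int". The table names a copy by its subfamily and a running number, which serves here as its identity. Genome positions were not used here.

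An intact endogenous retrovirus has an internal part that encodes viral proteins, flanked by LTRs, which hold the promoter and the polyadenylation signal. Most copies in a mouse genome are broken, or are lone LTRs left by recombination. Many are kept silent by DNA methylation and by methylation of histone H3 at lysine 9, which SUV39H1 and SETDB1 can write, while LTRs that bind transcription factors can be activated in immune cells. Lipopolysaccharide (LPS), a component of bacterial walls, is sensed by Toll-like receptor 4, which signals through the adaptors MyD88 and TRIF (gene Ticam1). The TRIF branch leads to type I interferon, which acts through a receptor that contains IFNAR1.

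The series holds 65 RNA-seq libraries in 19 groups. Bone-marrow-derived dendritic cells of C57BL/6 mice form the first 2 experiments. Untreated cells (0 h) were labelled wild type, Suv39h1KO, IfnarKO or Suv39h1KO IfnarKO, with 3 libraries a group, 1 per cohort. In the second experiment, dendritic cells were untreated (0 h) or given LPS at 100 ng/mL for 2 h or 4 h, and were labelled wild type (6, 5 and 6 libraries), MyD88KO (3 at each time) or TrifKO (3 at each time). The third experiment used RAW264.7 cells, a mouse macrophage line labelled BALB/c, at 0 h and 2 h of LPS, each with a control guide RNA, guide 1 or guide 2 (3 libraries a group). The labels do not give the guides' targets, nor whether the 3 libraries of a guide came from 1 line. The titles of the RAW264.7 libraries call the cells dendritic, and the LPS label is also attached to their 0 h libraries. Sex and age are not in the labels. In the wild-type groups of the LPS experiment, at 0 h as well as at 2 h and 4 h, up to 2 libraries share a cohort number. The p-values therefore measure the spread between libraries, part of which may be technical.

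Gene totals ranged from 36.9 M to 95.3 M counts a library (median 54.7 M, M being the mega prefix), and ERVB counts from 6071 to 25554 (median 10960). Levels are in CPM (counts per M) of the library's gene total after TMM scaling, which takes most genes as unchanged between libraries. The summed CPM of 8 dendritic-cell markers was 13505 to 29736 in wild-type cells of the LPS experiment and 96.4 to 251 in RAW264.7 cells. Macrophage markers did not set the line apart. They were at 5192 to 7525 in RAW264.7 cells, 3581 to 12546 in all dendritic cultures of the LPS experiment and 7704 to 18366 in those of the experiment without LPS. Granulocyte markers reached 1129 in the dendritic cultures, in Suv39h1KO IfnarKO. In the LPS experiment they were highest in TrifKO, at up to 648 at 2 h and 708 at 4 h, against at most 517 in wild type. Mast-cell markers reached 130 at 2 h and 138 at 4 h in TrifKO, where both medians were 31.7, against at most 72.3 in wild type of that experiment. The part of these markers in the results was not tested. Suv39h1 was at 43.3 to 60.9 CPM in wild-type cells of the knockout experiment without LPS and at 0.11 to 0.371 in both Suv39h1KO groups. Ifnar1 transcript remained in IfnarKO (137 to 161 CPM, wild type 173 to 194), and Myd88 transcript remained at a lower level in MyD88KO (46.2 to 48.6 CPM at 0 h, wild type 72.2 to 80.7). Ticam1 did not mark the libraries labelled TrifKO as a group. It was at 2.94 and 2.46 CPM in cohort 3 at 2 h and 4 h, but between 29.8 and 50.3 in the other 7 libraries of that label, within the wild-type range of 25 to 58.4. The part of the gene that was deleted is not given in the labels, so the results for TrifKO are given for the libraries so labelled, with and without cohort 3.

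Counts on ERVB elements came from few copies. Of the 7996 copies, 2442 (30.5%) had any count, and they held 836170 counts over all libraries. Of all ERVB counts, 50% lay in 4 copies and 90% in 73 copies. ERVB7_2-LTR_MM copy 780007 alone held 208261 counts (24.9%). ERVB4_3-I_MM-int copy 4492159 followed with 90923 (10.9%), then ERVB7_1-LTR_MM copy 748045 with 75087 (8.98%) and ERVB2_1-I_MM-int copy 323527 with 46946 (5.61%). The top 8 together held 63.1%.

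The order of the subfamilies by copies differed from their order by counts. The subfamilies with the most copies were ERVB4_1B-I_MM-int (1368), ERVB4_1C-LTR_Mm (961) and ERVB7_1-LTR_MM (770). By counts, the first was ERVB7_2-LTR_MM (425 copies, 262734 counts), followed by ERVB4_3-I_MM-int (99 copies, 150982 counts) and ERVB7_1-LTR_MM (122550 counts). A single copy held 80.8% of the counts of ERVB2_1-I_MM-int, 79.3% of ERVB7_2-LTR_MM and 64.0% of ERVB7_2B-LTR_MM. The copies of ERVB4_1B-I_MM-int were the most even, with 8.12% in the top copy. A subfamily value is therefore often the value of 1 locus, and the subfamily tests are given below also without the copy with the most counts.

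Different copies were read in the 2 kinds of cell. Copies with counts in all 3 experiments numbered 611, against 549 in RAW264.7 cells only and 976 in the dendritic cultures only. A single count was enough, so these numbers also depend on depth. The line had 18 libraries with 284638 ERVB counts. The dendritic experiments had 12 libraries with 121608 and 35 with 429924. Copy 4492159 had 97.8, 117 and 104 CPM in the control-guide line at 0 h and next to none in dendritic cells. Copies 748045 and 1973603 of ERVB7_1-LTR_MM showed the opposite, and the whole subfamily was at 27.8 to 50.1 CPM in wild-type dendritic cells of the LPS experiment at 0 h, at 42.9 to 59.2 in those of the experiment without LPS and at 4.84 to 8.05 in RAW264.7 cells. The experiments were made with different cells, mouse strains and libraries, so these levels are a description with no test.

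**Figure D1:**
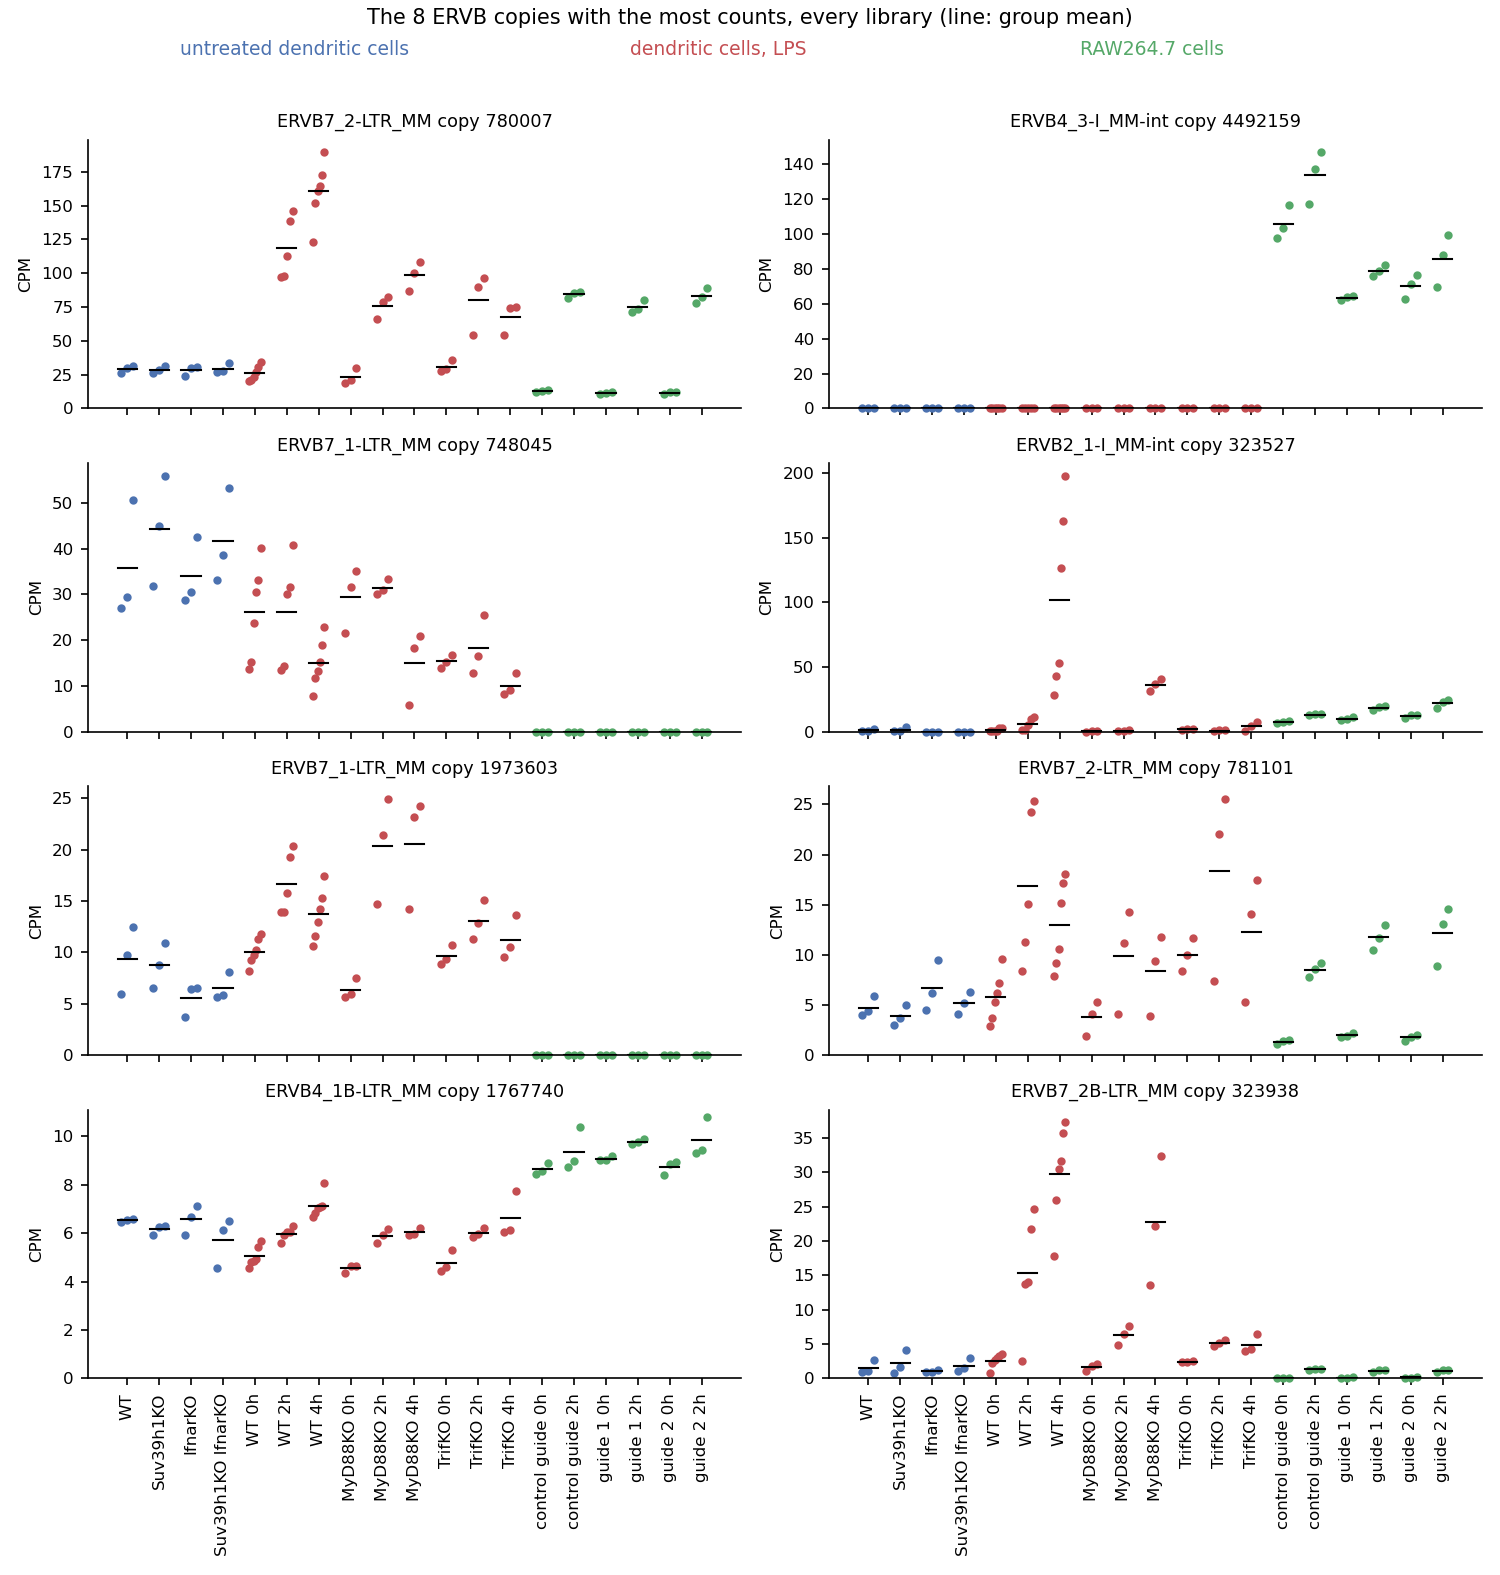
Level of the 8 ERVB copies with the most counts in all 65 libraries (points, CPM of the TMM-scaled gene total, with the mean of each group as a line). Copy 780007 is high after LPS in both kinds of cell, copies 748045 and 1973603 are read in dendritic cells, and copy 4492159 in RAW264.7 cells.

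In wild-type dendritic cells the summed ERVB level was 114 to 139 CPM at 0 h (median 124), 243 to 436 at 2 h (278) and 361 to 714 at 4 h (471), and the 3 times did not overlap between 0 h and either later time. As a share of all ERVK counts the mean went from 3.09% to 5.30% and 6.00%. The internal subfamilies' share of the ERVB counts went from 15.9% to 22.6% and 38.9%. In bulk RNA, fewer cells of a type and less RNA per cell cannot be told apart.

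Of the 20 subfamilies tested, 11 had an adjusted p under 0.05 after 2 h (10 higher, 1 lower), where 44.6% of all subfamilies tested did (39.2% higher), and 14 at 4 h (12 higher, 2 lower), where 65.7% did (58.9% higher). Adjusted p-values are from edgeR's quasi-likelihood test with Benjamini-Hochberg adjustment over all features. The median log2 fold change was 0.74 at 2 h and 1.10 at 4 h, against 0.28 and 0.50 over all subfamilies. Of 123 single copies tested, 61 passed at 2 h (48 higher) and 77 at 4 h (59 higher), against 31.2% and 42.4% of all copies tested (20.3% and 28.4% higher). Scaling mattered for the split. With plain gene totals in place of TMM, which lowers every log2 fold change of wild type by 0.38 at 2 h and 0.65 at 4 h, 38 copies were higher and 29 lower at 2 h, and 45 higher and 42 lower at 4 h. For subfamilies the split was 9 higher and 6 lower at 2 h, and 7 higher and 8 lower at 4 h. With the totals of the repeat table, copies were 40 higher and 27 lower at 2 h and 46 higher and 39 lower at 4 h, and subfamilies were 9 and 5, and 8 and 7.

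ERVB2_1-I_MM-int, an internal subfamily of 83 copies, rose most at 4 h. Its 6 wild-type libraries at 0 h were at 0.414 to 3.80 CPM (median 1.14), the 5 at 2 h at 1.91 to 23.6 (9.44), and the 6 at 4 h at 42.3 to 244 (113). The 4 h libraries lay above all others, while 2 h and 0 h overlapped. The log2 fold change was 2.80 ± 0.59 (SE) at 2 h (adjusted p = 0.000295) and 6.21 ± 0.66 at 4 h (adjusted p = 1.53e-09). All 4 copies tested rose at 4 h, by 5.96 to 6.67. Without copy 323527 the subfamily's change at 4 h was 6.26, so a second copy, 323676, moved as much: it was at 0.107 to 0.318 CPM at 0 h and 10.1 to 29.1 at 4 h.

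ERVB5_1-I_MM-int had moved by 2 h. It was at 0.547 to 3.23 CPM at 0 h (median 1.19), 7.05 to 76.4 at 2 h (27.2) and 28.6 to 84.8 at 4 h (39.6), with no overlap between 0 h and later libraries. It rose by 4.62 ± 0.51 at 2 h (adjusted p = 1.19e-08) and 4.95 ± 0.51 at 4 h (adjusted p = 7.36e-10). ERVB5_2-LTR_MM, an LTR subfamily, was at 1.38 to 2.53 CPM, 2.50 to 16.2 and 7.54 to 19.8. It rose by 2.19 ± 0.32 and 2.54 ± 0.31. Most of the 29202 counts of ERVB5_1-I_MM-int lay in copies numbered 779870 to 779878, led by 779874 (9550) and 779873 (6645). Leaving out its leading copy leaves the others of these in place. Copy 779869 of ERVB5_2-LTR_MM, next to them in number, held 41.3% of that subfamily's counts in the LPS experiment. The rises of the 2 subfamilies are thus not separate observations.

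ERVB7_2-LTR_MM was the most abundant subfamily. Its wild-type libraries were at 28.2 to 50.2 CPM at 0 h (median 35.7), 112 to 178 at 2 h (133) and 144 to 218 at 4 h (179), with no overlap between 0 h and later times. It rose by 1.91 ± 0.17 at 2 h and 2.25 ± 0.17 at 4 h (adjusted p = 1.11e-12). Copy 780007 went from 20.1 to 34.1 CPM at 0 h to 97.5 to 146 at 2 h and 123 to 190 at 4 h, a rise of 2.18 ± 0.17 and 2.62 ± 0.17 (adjusted p = 7.2e-15). Without this copy the subfamily's change was 1.00 at 2 h and 0.77 at 4 h (adjusted p = 0.0056).

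In 2 other LTR subfamilies the rise rested on the leading copy. ERVB7_2B-LTR_MM was at 2.99 to 7.03 CPM at 0 h and 20.1 to 41.8 at 4 h, and rose by 1.82 ± 0.27 at 2 h and 2.62 ± 0.27 at 4 h. Without copy 323938 the change was 0.39 (adjusted p = 0.16) and 0.27 (adjusted p = 0.29). ERVB4_1C-LTR_Mm, at 1.46 to 3.64 CPM at 0 h and 7.91 to 14 at 4 h, rose by 1.21 ± 0.24 and 2.02 ± 0.23. Without copy 323935 the change was 0.09 at 2 h (adjusted p = 0.71) and 0.38 at 4 h (adjusted p = 0.046). The running numbers of these 2 leading copies are close to each other.

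Several subfamilies of ERVB4 also rose. ERVB4_1-I_MM-int rose by 2.01 ± 0.36 at 2 h and 1.91 ± 0.35 at 4 h, ERVB4_2-LTR_MM by 1.70 ± 0.47 and 1.49 ± 0.46, ERVB4_3-I_MM-int by 1.56 ± 0.45 and 1.51 ± 0.44, and ERVB4_3-LTR_MM by 1.07 ± 0.37 and 1.26 ± 0.36. ERVB4_1B-I_MM-int rose at 4 h by 0.95 ± 0.27. In wild type, ERVB4_2-LTR_MM, ERVB4_3-I_MM-int and ERVB4_3-LTR_MM overlapped between 0 h and both later times, and ERVB4_1B-I_MM-int between 0 h and 4 h. ERVB4_2-LTR_MM was low, at 0.0367 to 0.407 CPM over the 3 times. ERVB4_3-I_MM-int was at 2.23 to 8.31 CPM at 0 h and 5.73 to 22.6 at 4 h. ERVB4_1B-LTR_MM rose at 4 h by 0.39 ± 0.07 with TMM scaling, but its change was -0.26 with plain gene totals and -0.18 with totals of the repeat table. Falls were few: ERVB2_1A-I_MM-int fell by 0.61 ± 0.14 at 2 h and 0.52 ± 0.13 at 4 h, and ERVB3_1-LTR_MM at 4 h by 0.96 ± 0.25. ERVB5_1-LTR_MM and ERVB7_4-LTR_MM passed in no comparison of the series.

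Single copies could differ from their subfamily. ERVB7_1-LTR_MM did not pass at either time, with changes of 0.32 at 2 h and -0.08 at 4 h. Its copy 748045 of ERVB7_1-LTR_MM was at 13.7 to 40.1 CPM at 0 h and 7.73 to 22.9 at 4 h. The 2 groups overlapped, and the change was -0.80 ± 0.29 (adjusted p = 0.0239). The call was lost with the wild-type libraries of a cohort summed (-0.77, adjusted p = 0.0546), with the wild-type libraries numbered 33 to 41 alone (-0.49, adjusted p = 0.334) and without any 1 of the 0 h libraries 1, 5 and 35 or the 4 h libraries 14 and 40 (range -0.96 to -0.63, with 7 of 12 fits past the threshold). Copy 1973603 of the same subfamily, at 8.15 to 11.7 CPM at 0 h and 13.9 to 20.3 at 2 h, rose by 0.73 ± 0.17 at 2 h without overlap. The call was lost with plain gene totals (0.35, adjusted p = 0.119), with repeat totals (0.47, adjusted p = 0.0799) and with libraries 33 to 41 alone (0.58, adjusted p = 0.066). Its 4 h change of 0.44 ± 0.16 was -0.20 with plain gene totals. ERVB2_1A-I_MM-int copy 400787 went from 0.759 to 1.13 CPM at 0 h to 0.0238 to 0.236 at 4 h, and fell by 2.80 ± 0.35, in the direction of its subfamily. ERVB4_1B-I_MM-int copy 3288210 went from 0.307 to 0.857 CPM to at most 0.185 at 4 h, and fell by 2.83 ± 0.41, while its subfamily rose. ERVB5_2-LTR_MM copy 4309749 was at 0.430 to 0.710 CPM at 0 h and at most 0.185 at 4 h, and fell by 2.42 ± 0.36, while its subfamily rose.

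The wild-type libraries of the LPS experiment carry library numbers in 2 sets, 1 to 14 (the set of the MyD88KO libraries) and 33 to 41 (the set of the TrifKO libraries). The labels do not say what the numbers stand for. In the low and the high set alone, ERVB2_1-I_MM-int changed by 2.77 and 2.61 at 2 h and by 6.69 and 6.00 at 4 h, ERVB5_1-I_MM-int by 3.97 and 4.58 at 2 h and by 5.20 and 4.82 at 4 h, and ERVB7_2-LTR_MM by 1.92 and 1.84 at 2 h and by 2.33 and 2.20 at 4 h. Lower values in the low set at 2 h were found for ERVB5_2-LTR_MM (1.17 against 2.52), ERVB7_2B-LTR_MM (1.18 against 2.00) and ERVB4_2-LTR_MM (0.59, adjusted p = 0.62, against 2.04). ERVB4_3-LTR_MM passed in neither set at 2 h (0.72, adjusted p = 0.32, and 1.13, adjusted p = 0.067), and at 4 h it passed in the low set (1.56) but not in the high set (0.99, adjusted p = 0.097). Calls were also lost in the low set for ERVB4_1C-LTR_Mm (0.74, adjusted p = 0.14) and ERVB4_3-I_MM-int (0.88, adjusted p = 0.15) at 2 h, and for ERVB4_2-LTR_MM (1.28, adjusted p = 0.063) and ERVB3_1-LTR_MM (-0.66, adjusted p = 0.058) at 4 h. With the low set only, 7 subfamilies and 33 copies passed at 2 h.

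**Figure D2:**
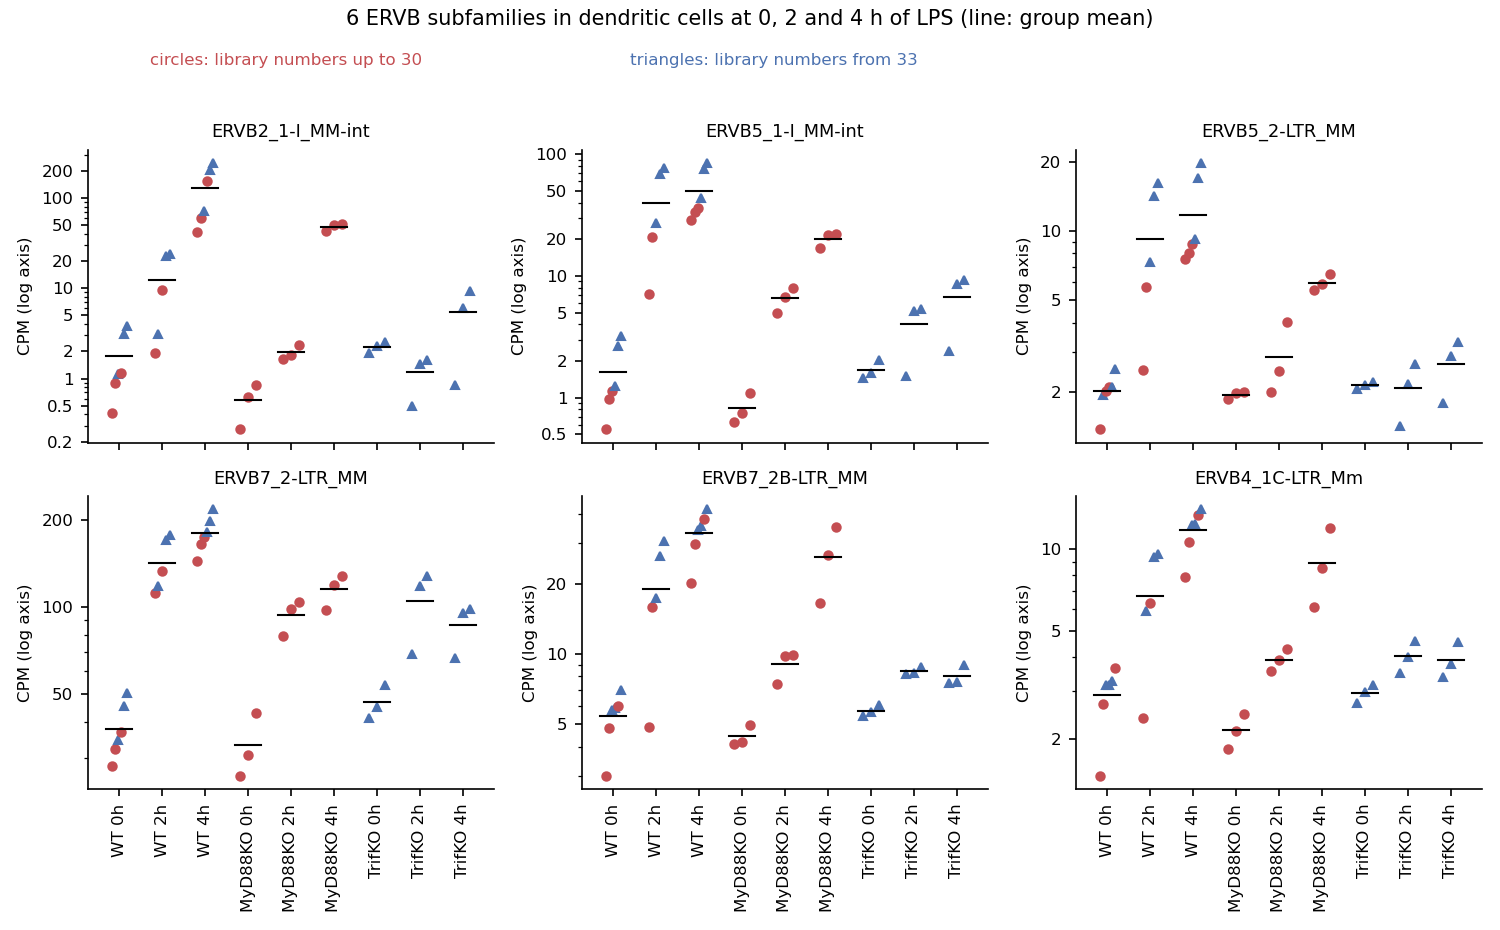
Level of 6 ERVB subfamilies in the dendritic cell libraries of the LPS experiment (log axis, CPM), with circles for library numbers up to 30, triangles for numbers from 33 and a line at the group mean. ERVB2_1-I_MM-int at 4 h lies between 42.3 and 244 CPM in wild type, between 43 and 50.7 in MyD88KO and between 0.847 and 9.36 in TrifKO.

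In MyD88KO cells most of the large rises were present at 4 h and fewer at 2 h. At 2 h, 2 of 20 subfamilies passed, both higher (background, the share of all features tested that passed, 7.72%, 6.98% higher), and 26 of 123 copies, 24 of them higher (background 7.15%, 6.19% higher). At 4 h, 8 subfamilies passed, all higher (background 37%, 34.5% higher), and 42 copies, 40 of them higher (background 15.6%, 13.2% higher). The count of copies at 2 h was 14, 12 and 14 without cohort 1, 2 or 3 of MyD88KO at 0 h and 17 without cohort 1 at 2 h. ERVB2_1-I_MM-int was at 0.623, 0.853 and 0.273 CPM at 0 h, 2.37, 1.81 and 1.65 at 2 h, and 50.1, 43 and 50.7 at 4 h. The change was 1.76 ± 0.89 at 2 h (adjusted p = 0.22), and the subfamily rose by 6.38 ± 0.97 at 4 h (adjusted p = 6.83e-06). All 4 copies tested rose at 4 h.

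ERVB5_1-I_MM-int went from 0.748, 1.08 and 0.627 CPM to 7.96, 6.73 and 4.98 and then to 17, 21.5 and 22, and the 3 times did not overlap. It rose by 3.01 ± 0.69 and 4.63 ± 0.72. ERVB7_2-LTR_MM, at 30.7, 42.9 and 26.0 CPM at 0 h and 128, 119 and 97.6 at 4 h, rose by 1.50 ± 0.23 at 2 h and 1.79 ± 0.24 at 4 h. At 4 h ERVB7_2B-LTR_MM rose by 2.56 ± 0.38, ERVB4_1C-LTR_Mm by 2.05 ± 0.33, ERVB5_2-LTR_MM by 1.61 ± 0.43 and ERVB4_3-LTR_MM by 1.31 ± 0.53. ERVB4_1B-LTR_MM rose by 0.28 ± 0.10 with TMM scaling and was at -0.07 with plain gene totals and -0.16 with repeat totals. With plain totals, which lower the log2 fold changes of MyD88KO by 0.22 at 2 h and 0.35 at 4 h, 30 copies were higher and 6 lower at 4 h. Of all copies that passed there, 63.2% were higher.

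The difference of the MyD88KO response from the wild-type response passed for no ERVB subfamily and no copy at either time in the main edgeR fit. At an unadjusted p under 0.05 there were 2 subfamilies at 2 h and 0 at 4 h, and 9 and 8 copies, and DESeq2 called 3 copies at 4 h. The background was 0.106% and 2.75% of subfamilies and 0.00462% and 0.126% of copies. The difference for ERVB2_1-I_MM-int was -1.04 ± 1.06 at 2 h and 0.17 ± 0.99 at 4 h, for ERVB5_1-I_MM-int -1.61 ± 0.82 and -0.32 ± 0.80, and for ERVB7_2-LTR_MM -0.41 ± 0.28 and -0.46 ± 0.28. These errors leave room for differences of 1 log2 unit or more in the first 2. With the wild-type libraries of a cohort summed, ERVB5_2-LTR_MM passed at 2 h, at -1.77 (edgeR, adjusted p = 0.0475). At 0 h, neither MyD88KO nor TrifKO had an ERVB subfamily or copy that passed against wild type with edgeR. Unadjusted p-values under 0.05 were found for 2 and 1 subfamilies and 16 and 5 copies, and the background was 0% and 0% of subfamilies and 0.157% and 0% of copies.

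In the libraries labelled TrifKO fewer elements passed than in wild type, among ERVB and among all features alike. At 4 h in wild type, 65.7% of all subfamilies and 42.4% of all copies had passed. TrifKO had 3 libraries at each time against 5 or 6 in wild type. A smaller group gives fewer calls, so these counts alone do not compare the responses. At 2 h, 1 subfamily passed, higher (background 6.35%, 5.19% higher), and 12 of 123 copies, 9 higher (background 5.22%, 3.85% higher). At 4 h, 3 subfamilies passed, 2 higher (background 10.4%, 8.25% higher), and 9 copies, 8 higher (background 5.41%, 4% higher). These copy counts ranged from 3 to 11 at 2 h and from 2 to 13 at 4 h when 1 library of the 6 was left out, and the subfamilies at 4 h from 1 to 3. With plain gene totals, which lower these log2 fold changes by 0.26 at 2 h and 0.23 at 4 h, copies were 5 higher and 5 lower at 2 h and 3 higher and 4 lower at 4 h. Of all copies that passed there, 48.7% were higher at 2 h and 54.5% at 4 h. ERVB2_1-I_MM-int was at 2.31, 2.51 and 1.92 CPM at 0 h, 1.58, 1.44 and 0.491 at 2 h, and 6.05, 9.36 and 0.847 at 4 h, in cohorts 1, 2 and 3. Its 4 h values overlapped those at 0 h and all lay below the lowest wild-type library at 4 h. The change was -0.94 ± 0.84 and 1.27 ± 0.79, neither past the threshold.

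ERVB5_1-I_MM-int, at 2.04, 1.44 and 1.59 CPM at 0 h and 9.33, 8.55 and 2.40 at 4 h, rose by 2.00 ± 0.65 at 4 h (adjusted p = 0.0478). ERVB7_2-LTR_MM was at 53.6, 41.4 and 45.2 CPM at 0 h, 128, 119 and 68.7 at 2 h, and 95.1, 98.4 and 66.6 at 4 h, all above 0 h. It rose by 1.17 ± 0.23 at 2 h and 0.89 ± 0.23 at 4 h. ERVB3_1-LTR_MM fell at 4 h by 1.40 ± 0.34. In ERVB2_1-I_MM-int, ERVB5_1-I_MM-int, ERVB5_2-LTR_MM and ERVB7_2-LTR_MM, cohort 3, which held the low Ticam1 values, was the lowest of the 3 libraries at 2 h and at 4 h. ERVB4_1C-LTR_Mm was highest in cohort 3, at 4.60 CPM at 2 h (3.99 and 3.48 in cohorts 1 and 2) and 4.55 at 4 h (3.76 and 3.39). ERVB7_2B-LTR_MM was lowest in cohort 3 at 2 h but highest at 4 h (8.99 CPM, against 7.57 and 7.53). For ERVB4_1B-LTR_MM cohort 3 lay between the others at both times. ERVB4_3-I_MM-int copy 2532067 was not lowest in cohort 3 at 2 h either: it was at 0.681, 0.713 and 0.476 CPM at 0 h and 2.15, 2.20 and 2.47 at 2 h, and rose by 1.87 ± 0.38.

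The difference of the TrifKO response from the wild-type response passed for 3 subfamilies at 2 h (background 2.33%) and 7 at 4 h (background 16.6%, 15.8% lower), all lower in TrifKO. Among copies it passed for 5 at 2 h, all lower (background 1.1%, 1.07% lower), and 13 at 4 h, 12 lower (background 2.37%, 2.09% lower). At 4 h the differences were -4.94 ± 1.01 for ERVB2_1-I_MM-int (adjusted p = 0.00074), -2.95 ± 0.79 for ERVB5_1-I_MM-int, -2.23 ± 0.53 for ERVB5_2-LTR_MM, -2.12 ± 0.45 for ERVB7_2B-LTR_MM, -1.62 ± 0.40 for ERVB4_1C-LTR_Mm, -1.36 ± 0.28 for ERVB7_2-LTR_MM and -0.44 ± 0.12 for ERVB4_1B-LTR_MM. At 2 h the first 3 were at -3.74 ± 1.04, -3.38 ± 0.81 and -2.22 ± 0.54. With TMM scaling, the 1 copy with a difference in the other direction was 3288210 of ERVB4_1B-I_MM-int, at 2.68 ± 0.62. It was at 0.588, 0.454 and 0.496 CPM in TrifKO at 4 h and at most 0.185 in wild type. Plain gene totals in place of TMM raise every such difference by 0.13 at 2 h and 0.42 at 4 h. Subfamilies that passed were then 2 at 2 h and 6 at 4 h, all lower. Copies were 4 lower at 2 h, and 9 lower and 3 higher at 4 h. Of all subfamilies that passed at 4 h, 40% were higher with plain totals, against 5.1% with TMM. The -0.44 of ERVB4_1B-LTR_MM was about the size of the 4 h shift. MyD88KO and TrifKO are both set against the same wild-type libraries, and their own responses to LPS were not tested against each other. Single libraries moved the counts at 2 h. No subfamily passed without TrifKO cohort 3 or without the wild-type library of cohort 2, and 1 passed without TrifKO cohort 1 (all at 2 h). Copies ranged from 1 to 11 at 2 h and from 5 to 15 at 4 h when 1 library was left out, with 5 and 8 at 4 h without TrifKO cohorts 1 and 2 at 0 h and 8 without TrifKO cohort 3 at 4 h.

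Leaving out TrifKO cohort 3 left no subfamily past the threshold at 2 h, with differences of -3.47 for ERVB2_1-I_MM-int (adjusted p = 0.21), -3.03 for ERVB5_1-I_MM-int (0.12) and -2.01 for ERVB5_2-LTR_MM (0.20). At 4 h, ERVB2_1-I_MM-int kept -4.54 (adjusted p = 0.0084), ERVB7_2B-LTR_MM -2.24, ERVB5_2-LTR_MM -2.01, ERVB4_1C-LTR_Mm -1.74 and ERVB7_2-LTR_MM -1.22, all past the threshold, while ERVB5_1-I_MM-int was at -2.60 (adjusted p = 0.055) and ERVB4_1B-LTR_MM at -0.41 (adjusted p = 0.10). With wild-type libraries of the high set only, all 7 passed at 4 h, ERVB2_1-I_MM-int at -4.72. Without its leading copy the 4 h difference was -0.51 for ERVB7_2-LTR_MM (adjusted p = 0.45), -0.34 for ERVB7_2B-LTR_MM (0.59) and -0.36 for ERVB4_1C-LTR_Mm (0.45).

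**Figure D3:**
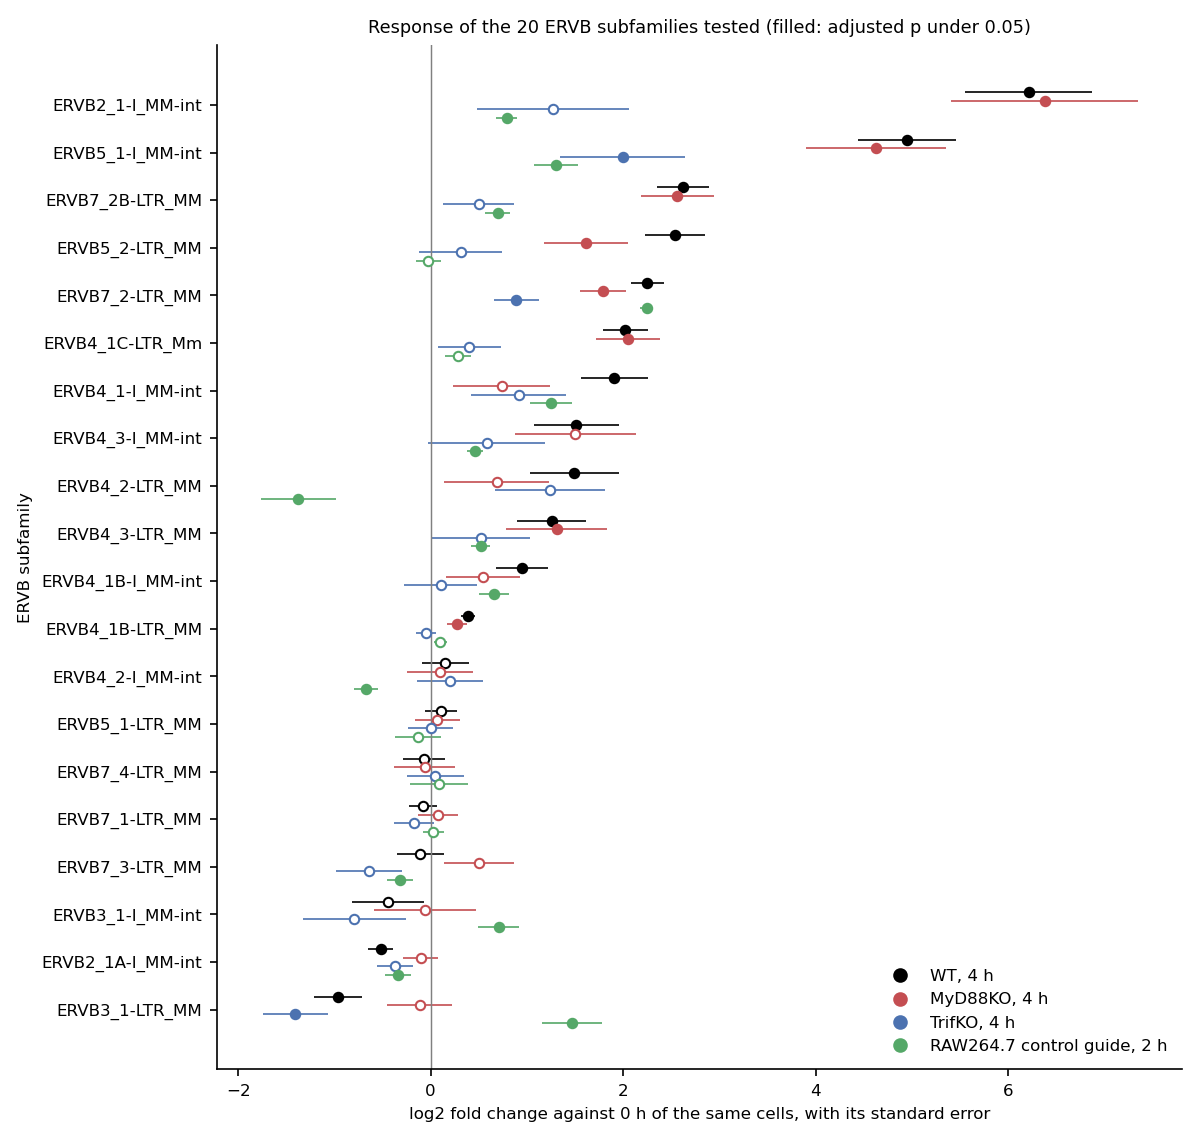
Log2 fold change (with its SE) of the 20 ERVB subfamilies tested, 4 h of LPS against 0 h in wild-type, MyD88KO and TrifKO dendritic cells, and 2 h against 0 h in RAW264.7 cells with the control guide, filled where the adjusted p was under 0.05. ERVB2_1-I_MM-int stands at 6.21 in wild type, 6.38 in MyD88KO and 1.27 in TrifKO.

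Many ERVB copies have another one close by in the table. Of all 7996 copies, 2166 (27.1%) had another ERVB copy at the next or previous running number, where ERVB copies make up 0.215% of all rows of the table. Whether neighbouring numbers are neighbours in the genome is not given in the sources used here. Copies no more than 10 numbers apart were taken as a run, a distance chosen after the data were seen. The 59 copies that rose at 4 h in wild type fell into 33 runs, and the 48 at 2 h into 28, where all 123 copies tested fell into 88. Whether copies that moved lie closer than the others was not tested, and copies are not independent of each other.

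The run with the most copies that rose was one of 10 copies from 779869 to 779879, with 34868 counts (4.17% of ERVB counts). It holds 7 copies of ERVB5_1-I_MM-int, flanked by copies 779869 and 779879 of ERVB5_2-LTR_MM, with copy 779875 of ERVB7_1-LTR_MM among them. These 7 copies held most of the counts of ERVB5_1-I_MM-int. Copy 779874 was at 0.0779 to 0.769 CPM in wild type at 0 h, 2.43 to 27.8 at 2 h and 9.83 to 30.2 at 4 h. In MyD88KO it was at 0.0818 to 0.142, 1.53 to 2.27 and 5.72 to 7.15, and in TrifKO at 0.312 to 0.619, 0.674 to 1.56 and 0.599 to 3.19. In wild type and MyD88KO the 4 h libraries lay above all 0 h libraries. In TrifKO they overlapped them.

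All 10 copies rose at 2 h and at 4 h in both wild type and MyD88KO. In TrifKO 1 rose at 2 h and 4 at 4 h. The median log2 fold changes at 2 h and 4 h were 4.98 and 5.37 in wild type, 3.66 and 5.35 in MyD88KO, and 1.64 and 2.42 in TrifKO. The difference of the TrifKO from the wild-type response passed for 4 copies at 2 h and 2 at 4 h. ERVB7_1-LTR_MM copy 779875 moved with its neighbours in the run, rising by 5.98 ± 0.62 at 4 h in wild type, and not with its subfamily, which did not pass.

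**Figure D4:**
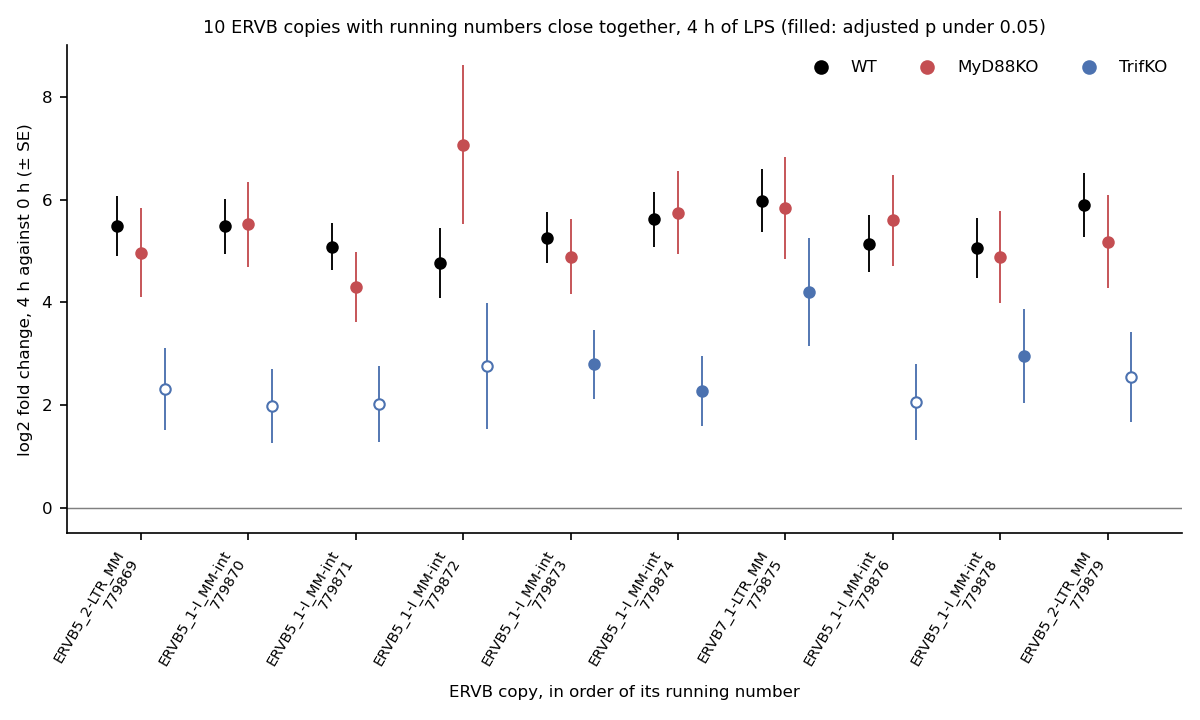
Log2 fold change at 4 h of LPS (with its SE) of the 10 ERVB copies with running numbers 779869 to 779879 in wild-type, MyD88KO and TrifKO dendritic cells, filled where the adjusted p was under 0.05. Wild type and MyD88KO lie between 4.30 and 7.07 and are all filled, and TrifKO lies between 1.98 and 4.20 with 4 of 10 filled. The value of 7.07 is copy 779872 in MyD88KO, which had no count in MyD88KO at 0 h, so its size is not well determined.

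Elements of other families with numbers next to copies 780007 and 323527 moved in the same direction as these copies. Next to copy 780007 at 4 h in wild type, 3 elements of the B2 family of short interspersed elements, numbers 780004 to 780006, rose by 3.02 (B3), 2.84 (B2_Mm1t) and 2.60 (B2_Mm2), and the LTR element MTC at 780008 by 2.91. Next to copy 323527, RLTR13D2 at 323526 rose by 6.06 and 3 rows of IAPEY3 at 323528 to 323530 by 6.39 to 6.98. Next to copy 748045, whose smaller fall lost its call in several of the fits given above, the DNA transposon URR1A at 748044 fell by 4.15. Neighbours of the other copies with the most counts are not given here. RNA that begins in an ERVB copy and RNA of a transcript that runs through one cannot be told apart in these counts.

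In untreated dendritic cells the ERVB sum differed little between genotypes. It was 126 to 159 CPM over the 12 libraries, with means of 138 in wild type, 151 in Suv39h1KO, 131 in IfnarKO and 148 in Suv39h1KO IfnarKO. Calls were few and named single elements. The cohort numbers pair these libraries, so the value with cohort as a replicate block is given where it changes a call.

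The ERVB4_3 elements were higher without Suv39h1. ERVB4_3-I_MM-int was at 1.31, 4.01 and 3.19 CPM in wild type (cohorts 1, 2 and 3), at 3.53, 12.9 and 13.1 in Suv39h1KO, at 1.41, 3.87 and 3.63 in IfnarKO and at 5.96, 14.5 and 14.8 in Suv39h1KO IfnarKO. In each cohort both groups without Suv39h1 were above both groups with it, but cohort 1 was low throughout, so that wild type and Suv39h1KO overlapped. The change was 1.80 ± 0.50 (adjusted p = 0.20) against wild type and 1.98 ± 0.50 (adjusted p = 0.12) in Suv39h1KO IfnarKO against IfnarKO. With the replicate block it rose in both, by 1.73 (adjusted p = 8.67e-11) and 2.01 (1.62e-12).

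ERVB4_3-LTR_MM was at 0.107, 0.240 and 0.140 CPM in wild type, 0.375, 0.959 and 1.07 in Suv39h1KO, 0.0646, 0.256 and 0.161 in IfnarKO and 0.371, 1.15 and 1.29 in the double group, with no overlap between groups with and without Suv39h1. The change was 2.24 ± 0.54 against wild type (adjusted p = 0.11, or 7.26e-06 with the block, at 2.19), and the subfamily rose by 2.51 ± 0.54 against IfnarKO (adjusted p = 0.0385, or 4.91e-07 with the block). Of 19 subfamilies tested it was the 1 that passed without the block (background 0.636%, 0.424% higher). Against wild type none passed (background 0.53%, 0.318% higher, edgeR), with 3 at an unadjusted p under 0.05, 1 by DESeq2 and 2 with the block. The call of ERVB4_3-LTR_MM against IfnarKO went to 0 without any 1 IfnarKO library or without cohort 2 or 3 of the double group, and against wild type 2 subfamilies passed without Suv39h1KO cohort 1.

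Among 100 copies tested, 1 passed in Suv39h1KO against wild type (background 0.257%, 0.196% higher) and 4 in Suv39h1KO IfnarKO against IfnarKO (background 0.235%, 0.186% higher), all higher. ERVB4_3-I_MM-int copy 1254822 had no count in the 3 wild-type libraries and 28, 94 and 51 counts in Suv39h1KO, or 0.292, 1.07 and 0.801 CPM. That is at least 46.9-fold higher, against a floor of 3 counts over the group (counting error only; adjusted p = 0.000744). It had 2 counts in IfnarKO and 31, 154 and 78 in the double group, a ratio of 120 with an exact 95% counting interval of 32.8 to 995. Its neighbour 1254824 had 0 and 34 counts in wild type and Suv39h1KO, and 1 and 67 in IfnarKO and the double group, where it passed.

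The 2 remaining calls in the double group were copies 3005980 and 3005981 of ERVB4_1-I_MM-int. Copy 3005980 was at 0.0201 to 0.0323 CPM in IfnarKO and at 0.297, 0.423 and 0.748 in the double group, and rose by 4.18 ± 0.77. Of the 4 copies, 1 passed without any 1 IfnarKO library or without cohort 3 of the double group, and 2 without its cohort 2. The most abundant ERVB4_3-I_MM-int copy of dendritic cells, 1402302, was at 0.468, 2.05 and 1.42 CPM in wild type and 1.82, 6.86 and 8.34 in Suv39h1KO. It passed only with the block (2.04, adjusted p = 1.8e-07).

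**Figure D5:**
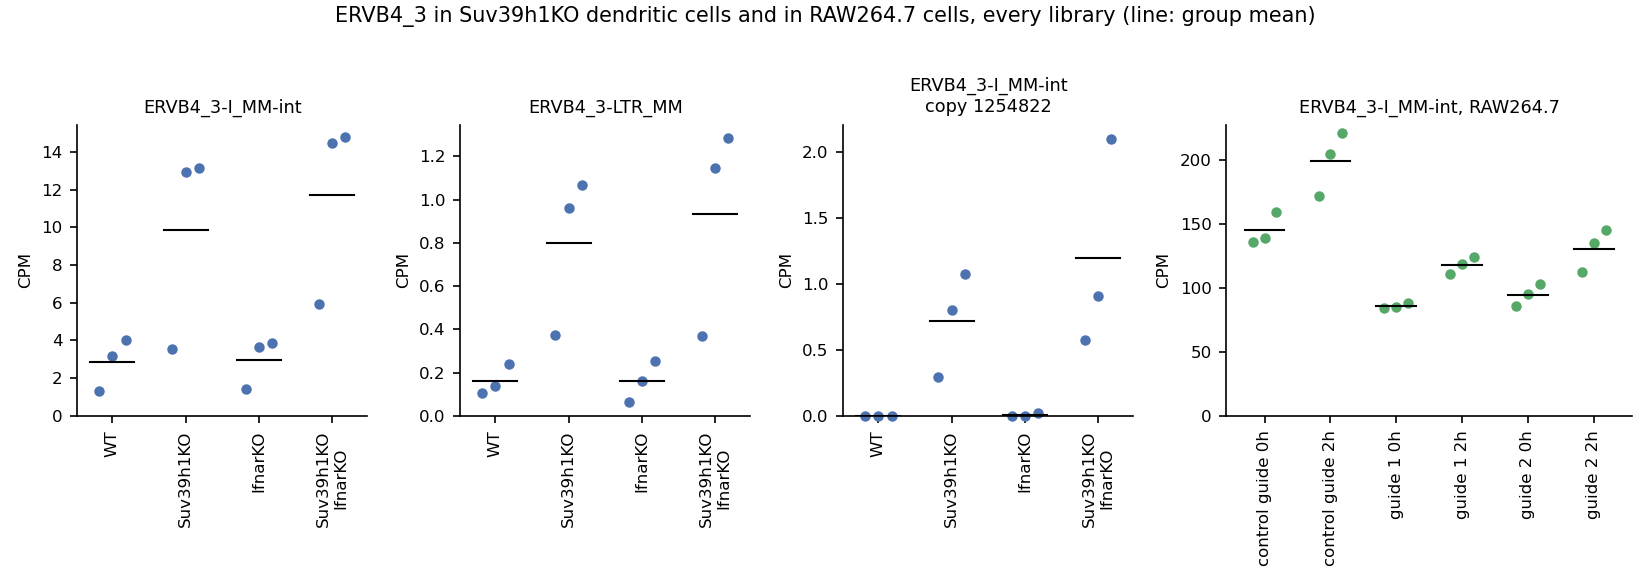
Level of ERVB4_3-I_MM-int, ERVB4_3-LTR_MM and ERVB4_3-I_MM-int copy 1254822 in untreated dendritic cells, and of ERVB4_3-I_MM-int in RAW264.7 cells (points are libraries, lines are group means, CPM). Copy 1254822 is at 0 CPM in wild type and between 0.292 and 1.07 in Suv39h1KO, and ERVB4_3-I_MM-int in RAW264.7 cells is lower with either guide than with the control guide at 0 h.

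IfnarKO cells had less of ERVB2_1-I_MM-int without any LPS. It was at 0.735, 1.21 and 2.40 CPM in wild type and 0.0646, 0.0243 and 0.0401 in IfnarKO, 8 counts in all. In Suv39h1KO it was at 0.573, 0.891 and 4.21, and in Suv39h1KO IfnarKO at 0.111, 0.0546 and 0.0351, so the groups with and without the receptor did not overlap. It fell by 5.03 ± 0.87 in IfnarKO against wild type (adjusted p = 0.0227), the 1 ERVB subfamily that passed (background 0.106%). Copy 323527 had 38, 79 and 77 counts in wild type and 2, 0 and 0 in IfnarKO (cohorts 1, 2 and 3), a ratio of 93.5 (exact 95% counting interval 25.5 to 777) and the 1 copy of 100 that passed (background 0.0405%). Without that copy the subfamily's change was -3.40 (adjusted p = 0.21). The subfamily and the copy no longer passed when any IfnarKO library, or the wild-type library of cohort 2 or 3, was left out, with 0 calls in each case. With the block ERVB5_1-I_MM-int also fell, by 1.51 (adjusted p = 2.85e-04), where the fit without it gave -1.48 ± 0.43 (adjusted p = 1.00). These are the same 2 internal subfamilies that moved most with LPS in wild type. The summed macrophage markers were at 12679 to 18366 CPM in IfnarKO and 9259 to 12211 in wild type, and their part in the difference was not tested.

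In RAW264.7 cells the mean ERVB sum went from 253 to 409 CPM after 2 h of LPS with the control guide, from 183 to 307 with guide 1 and from 189 to 334 with guide 2. Of 20 subfamilies, 14, 12 and 14 passed (10, 10 and 13 higher), against backgrounds of 56.2%, 57.8% and 62.2% (50.9%, 52.8% and 58.3% higher). Of 131 copies, 52, 49 and 48 passed (46, 45 and 45 higher), against 20.7%, 21.4% and 22% (15.9%, 16.9% and 17.7% higher). With plain gene totals, which lower these log2 fold changes by 0.18, 0.17 and 0.18, copies higher and lower were 34 and 12, 35 and 10, and 42 and 3. Of all copies that passed with plain totals, 63.1%, 66.1% and 68.4% were higher. With totals of the repeat table, ERVB copies were 32 and 15, 33 and 14, and 38 and 9 (all copies that passed: 53.5%, 55.6% and 54.2% higher). ERVB subfamilies were then 8 and 6, 4 and 6, and 5 and 4 (all subfamilies that passed: 48.9%, 46.1% and 48.5% higher). The split of the subfamilies thus depended on scaling.

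ERVB7_2-LTR_MM had the largest fold change of the subfamilies in the line. It was at 21.6, 23 and 20.7 CPM at 0 h and 104, 102 and 104 at 2 h with the control guide, and at 18 to 20.8 and 90.03 to 111 with the other guides. It rose by 2.25 ± 0.07, 2.30 ± 0.07 and 2.42 ± 0.07. Copy 780007 rose by 2.71 ± 0.09 with the control guide (12.6, 13.6 and 12.4 to 85.5, 81.5 and 86.0 CPM), and without it the subfamily's change was 1.10. Copy 323938 of ERVB7_2B-LTR_MM rose by 3.68 ± 0.36 and copy 323935 of ERVB4_1C-LTR_Mm by 2.72 ± 0.56, as they did in dendritic cells.

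The 2 internal subfamilies that led in dendritic cells had smaller fold changes here. ERVB2_1-I_MM-int was at 7.41, 7.67 and 9.18 CPM at 0 h with the control guide, above every untreated dendritic cell library, and at 13.8, 13.7 and 14.3 at 2 h. It rose by 0.79 ± 0.11. ERVB5_1-I_MM-int rose by 1.31 ± 0.23. The 2 h libraries of the 2 experiments differ in cell and depth, and the difference between the cells was not tested.

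ERVB4_3 was the dominant group in RAW264.7 cells, where a run of 7 copies from 4492149 to 4492160 held 138718 counts, against 13 in all dendritic cell libraries. ERVB4_3-I_MM-int was at 136, 160 and 139 CPM at 0 h and 221, 205 and 172 at 2 h with the control guide, without overlap, and rose by 0.46 ± 0.09 with each guide. ERVB4_3-LTR_MM rose by 0.52 ± 0.10, 0.38 ± 0.10 and 0.39 ± 0.10. Of its single copies, 21 of 26 internal and 7 of 11 LTR copies tested rose with the control guide (background 15.9% higher).

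ERVB3_1-LTR_MM was at 0.251, 0.450 and 0.331 CPM at 0 h and 1.08, 0.975 and 0.760 at 2 h, and rose by 1.47 ± 0.31, whereas it fell in dendritic cells at 4 h. Its copy 3899526 had no count at 0 h and 24, 23 and 13 at 2 h, at least 21.4-fold higher (floor of 3 counts over the group). ERVB3_1-I_MM-int rose by 0.71 ± 0.21 with the control guide. ERVB4_2-I_MM-int, at 6.89, 8.12 and 7.13 CPM at 0 h and 4.51, 4.14 and 5.20 at 2 h, fell by 0.67 ± 0.13, and ERVB4_2-LTR_MM fell by 1.38 ± 0.39. ERVB4_1-I_MM-int copy 3005981 went from no count to 9, 38 and 14, at least 21.7-fold higher.

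Before LPS the ERVB4_3 elements were lower with both guides than with the control guide. ERVB4_3-I_MM-int was at 84.5, 87.9 and 85.2 CPM with guide 1 and 103, 86.0 and 95.5 with guide 2, below all control-guide libraries at 136 to 160. It was lower by -0.75 ± 0.09 (adjusted p = 1.97e-06) and -0.61 ± 0.09 (adjusted p = 5.12e-05) on the log2 scale. Copy 4492159 was at 62.0, 63.7 and 64.7 CPM with guide 1 and 76.5, 62.5 and 71.5 with guide 2, against 97.8 to 117, a difference of -0.74 ± 0.10 and -0.60 ± 0.10. ERVB4_3-LTR_MM differed by -0.59 ± 0.10 and -0.49 ± 0.10.

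Subfamilies that passed at 0 h were 2 for guide 1, both lower (background 1.71%, 1.49% lower), and 6 for guide 2, 5 lower (background 5.12%, 4.48% lower). Those lower with guide 2 were not all of ERVB4_3. Of 20 subfamilies tested, 6 for guide 1 and 13 for guide 2 had an unadjusted p under 0.05 (edgeR). Over all 937 subfamilies these numbers were 121 and 236. Copies were 11 for guide 1, 10 lower (background 0.245%, 0.189% lower), and 7 for guide 2, 6 lower (background 0.363%, 0.259% lower). Copy 3865807 of ERVB4_3-I_MM-int was lower with both guides: 0.303, 0.183 and 0.0558 CPM with guide 1, 0.209, 0.438 and 0.278 with guide 2, and 0.811, 1.22 and 0.530 with the control guide. ERVB2_1-I_MM-int went the other way with guide 2, at 11.6, 13.2 and 13.6 CPM, and was higher by 0.67 ± 0.11. For guide 1, at 10.3, 9.74 and 11.8, the difference of 0.40 had an adjusted p of 0.059. Both guides are set against the same control-guide libraries. Leaving out control-guide library 1 left 6 copies for guide 1 and 3 for guide 2, and leaving out library 2 left 2 subfamilies and 4 copies for guide 2. Without library 2 of guide 2 there were 3 subfamilies and 4 copies, and without library 2 or 3 of guide 1 there were 6 copies.

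Of the copies tested in both cell systems (57), 18 rose at 4 h in wild-type dendritic cells and 16 at 2 h in RAW264.7 cells with the control guide, and 13 rose in both. That is 72.2% of the first list and 81.25% of the second. Over all 37335 copies of the table tested in both, 8214 and 5443 rose and 3013 rose in both, 36.7% and 55.4% of the lists. The difference between ERVB and all copies was not tested. For falls the ERVB numbers were 9, 3 and 2, or 22.2% and 66.7% of the lists. Over all copies they were 6066, 2132 and 1144, or 18.9% and 53.7%. Among the shared risers were copies 780007, 323938, 323935, 323527 and 779874.

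Genes that act in the silencing of such elements were read beside them, from a list of 28 that covers the TRIM28 and SETDB1 complex, histone and DNA methyltransferases, the HUSH complex with its partners, HP1 proteins and chromatin assembly factors. In wild type, 17 passed at 2 h (5 higher, 12 lower, background 45.9%) and 19 at 4 h (6 higher, 13 lower, background 65.1%). Daxx, a chaperone of histone H3.3, was at 30.4 to 39.2 CPM at 0 h, 109 to 299 at 2 h and 356 to 516 at 4 h, and rose by 3.66 ± 0.17 at 4 h. In TrifKO at 4 h it was at 51.8 to 73.2 CPM, and the difference of responses was -2.76 ± 0.28. Resf1 (1.65) and Morc3 (1.81) rose at 4 h. Dnmt1, the maintenance DNA methyltransferase, and Cbx3, an HP1 protein, fell by 1.61 and 1.64. Setdb1 fell at 2 h by 0.84.

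In MyD88KO, 5 of the 28 passed at 2 h (3 higher, background 16.1%) and 14 at 4 h (8 higher, background 34.1%). In TrifKO 4 passed at 2 h (1 higher, background 20.7%) and 6 at 4 h (4 higher, background 25.9%). The TrifKO response differed from the wild-type response in 3 at 2 h (background 1.38%) and 10 at 4 h (6 higher, background 18.3%). The MyD88KO response differed in 1 at each time, both lower: Resf1 at 2 h (-0.77, background 0.442%) and Morc3 at 4 h (-0.67, background 6.86%). In RAW264.7 cells 18, 19 and 21 passed after LPS (3, 3 and 5 higher, backgrounds 51.6%, 51.3% and 50.8%), and Ehmt1, an H3 lysine 9 methyltransferase, fell by 0.99, 0.95 and 0.91. At 0 h Morc2a was higher with guide 1 (0.20, background 2.24%), and Dnmt3a (0.37) and Morc2a (0.24) with guide 2 (background 4.53%). In untreated dendritic cells the targeted gene Suv39h1 was the 1 gene of the list that passed in each Suv39h1KO comparison (backgrounds 0.209% and 0.222%). In IfnarKO none passed with edgeR (background 0.125%).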

How the data were processed

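Polyadenylated RNA was sequenced from 65 libraries. The authors deposited raw read counts per gene (23755 genes) and per repeat copy, the only unit used. STAR, HOMER and DESeq2 with the mm10 build are named in the submitters' processing notes, with no versions. The strand setting of the counting and the treatment of reads that match several copies are not given in the sources used here, so near-identical copies may share or lose counts. All columns matched a sample (0 did not).

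Library size was the gene total times its TMM factor. The quasi-likelihood test of edgeR 4.0.16 (R 4.3.3) was run separately for the 3 experiments, over all subfamilies (edgeR's low-count filter) and over all copies with at least 10 counts in at least 3 libraries. Of the ERVB copies, 100, 123 and 131 passed that filter, 206 in any experiment, and 19, 20 and 20 subfamilies. P-values were adjusted over all features and the threshold was 0.05. Fold changes are log2 with their SE, taken from the F statistic. The fit was tested on simulated data.

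Named were all subfamilies, the 8 copies with the most counts, and per comparison up to 6 rises and 6 falls among copies past the threshold with a mean of at least 20 counts and no overlap, of which the text gives a part. Named besides were the targeted genes and silencing genes. The members and lists were chosen with earlier results of these data known. The runs of running numbers were chosen after the data were seen. Cohort numbers pair the untreated dendritic cell libraries (correlation of deviations 0.373 or more in 18 of 18 pairs). No library was a copy of another (88 pairs within groups, lowest chi-square per degree of freedom 5.08). Alternatives were DESeq2 1.42.0, repeat totals, a replicate block, other filters, library sets, summed wild-type libraries, subfamilies without their leading copy and leaving out each library. Plain gene totals and leaving out TrifKO cohort 3 were added after seeing the data. Intervals and floors cover counting error only (95% exact, floor of 3 counts). Markers of B cells reached 14.6 CPM and of T cells 5.57 CPM.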

Additional observations from a re-analysis of the deposited data

Results flagged for a closer look

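Among 83 checks of single libraries within groups of 4 to 10, 4 stood apart from the rest of their group, about the number that chance gives (1 in 20). At 0 h in wild type, ERVB2_1A-I_MM-int was lowest at 3.98 CPM in cohort 2 (library number 5), where the next was 4.93, and ERVB3_1-LTR_MM was highest at 0.471 CPM in cohort 1 (library number 1), where the next was 0.361. At 4 h in wild type, ERVB4_1-LTR_MM was at 0.0559 CPM in cohort 2 (library number 40) and at 0 in the others, and ERVB4_1B-LTR_MM copy 1767740 was at 8.06 CPM in cohort 3 (library number 14), where the next was 7.14.

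The other flagged values are differences of the TrifKO response from the wild-type response that passed the test of the difference itself. At 2 h these were -3.74 for ERVB2_1-I_MM-int, -3.38 for ERVB5_1-I_MM-int and -2.22 for ERVB5_2-LTR_MM. At 4 h they were -4.94 for ERVB2_1-I_MM-int, -2.95 for ERVB5_1-I_MM-int, -2.23 for ERVB5_2-LTR_MM, -2.12 for ERVB7_2B-LTR_MM, -1.62 for ERVB4_1C-LTR_Mm, -1.36 for ERVB7_2-LTR_MM and -0.44 for ERVB4_1B-LTR_MM. Plain gene totals raise each 4 h difference by 0.42, about the size of the last.

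Of single copies at 2 h, ERVB2_1-I_MM-int copy 323676 differed by -6.00, ERVB5_2-LTR_MM copy 779869 by -4.00, and ERVB5_1-I_MM-int copies 779874, 779870 and 779876 by -3.81, -3.77 and -3.75. At 4 h, ERVB2_1-I_MM-int copies 323676, 323527, 323532 and 323534 differed by -5.01, -4.97, -4.92 and -4.74, and ERVB5_1-I_MM-int copies 779870 and 779874 by -3.49 and -3.34. ERVB7_2B-LTR_MM copy 323938 differed by -2.49 and ERVB7_2-LTR_MM copy 780007 by -1.49. ERVB4_1B-I_MM-int copy 3288210 differed by 2.68, in the other direction. Ticam1 was low in 2 of the 9 libraries labelled TrifKO, both of cohort 3, and its part in these differences was not tested beyond leaving out that cohort.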

How the results depend on the processing

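Over all alternatives, 533 counts of calls stayed within 1.5 times of the main count and 119 did not, and of the fold changes 5554 kept direction and side of the threshold, 562 lost it, 105 gained it and 14 changed sign. The cause was not tested unless named. Sign changes at 4 h of LPS with plain gene totals and with repeat totals were -0.26 and -0.18 for ERVB4_1B-LTR_MM in wild type, -0.069 and -0.16 for it in MyD88KO, -0.14 and -0.076 for its copy 1767740, and -0.20 and -0.081 for ERVB7_1-LTR_MM copy 1973603. With repeat totals in guide 2 they were -0.17 for ERVB4_1B-LTR_MM, -0.026 for ERVB5_2-LTR_MM, -0.046 for ERVB7_1-LTR_MM and -0.056 for ERVB4_3-I_MM-int copy 4492159. Without the leading copy, ERVB7_2B-LTR_MM in MyD88KO at 2 h was at -0.023 and ERVB7_3-LTR_MM with the control guide at 0.14.

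With cohort as a replicate block, subfamilies called went from 0 to 2 (Suv39h1KO), 1 to 2 (IfnarKO) and 1 to 2 (Suv39h1KO IfnarKO), and copies from 1 to 7, 1 to 2 and 4 to 9. In the other experiments the samples share only a number (lowest correlation -0.567 and 0.0335), and the block moved the copies from 0 to 1 for the MyD88KO difference at 4 h and from 7 to 11 for guide 2 at 0 h, and no other count by over 1.5 times. With DESeq2, subfamilies went from 0 to 1 (Suv39h1KO) and 1 to 2 (TrifKO, 2 h), copies from 1 to 4 (Suv39h1KO), 1 to 0 (IfnarKO), 0 to 3 (MyD88KO difference, 4 h), 5 to 9 and 13 to 21 (TrifKO difference, 2 h and 4 h), and silencing genes from 1 to 2 and 1 to 3 (MyD88KO difference, 2 h and 4 h) and 1 to 2 (guide 1, 0 h). With copies of at least 5 counts, Suv39h1KO had 3.

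Without the leading copy of each subfamily, subfamilies went to 0 for IfnarKO and for Suv39h1KO IfnarKO, from 8 to 5 (MyD88KO, 4 h), 3 to 1 (TrifKO, 4 h), 0 to 1 (MyD88KO difference, 4 h), 7 to 4 (TrifKO difference, 4 h), 14 to 9 (control guide), 12 to 7 (guide 1) and 6 to 2 (guide 2, 0 h). With plain totals, subfamilies went from 1 to 4 (TrifKO, 2 h) and 14 to 9 (guide 2), and copies from 0 to 1 (MyD88KO difference, 4 h). With repeat totals, subfamilies went from 1 to 0 (IfnarKO), 2 to 4 (MyD88KO, 2 h), 1 to 3 (TrifKO, 2 h), 14 to 9 (guide 2) and 6 to 3 (guide 2, 0 h), and copies from 1 to 5 (Suv39h1KO) and 4 to 7 (Suv39h1KO IfnarKO). With wild-type libraries of a cohort summed, the MyD88KO difference at 2 h had 1 subfamily and the TrifKO difference at 2 h 12 copies. The low set alone gave 7 subfamilies and 33 copies at 2 h in wild type, with fewer libraries, and the high set 5 subfamilies in the TrifKO difference at 2 h. Without TrifKO cohort 3, subfamilies went from 3 to 1 (4 h) and 3 to 0 (difference, 2 h), and copies to 5 and 5 (2 h and 4 h) and 2 and 7 (differences).

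Leaving out each library gave these ranges for subfamilies and then copies: Suv39h1KO 0 to 2 and 1 to 3 (highest without Suv39h1KO cohort 1), IfnarKO 0 to 1 and 0 to 1, Suv39h1KO IfnarKO 0 to 1 and 1 to 5, wild type 10 to 12 and 48 to 63 at 2 h and 14 and 67 to 79 at 4 h, MyD88KO 2 and 12 to 23 at 2 h (17 without its cohort 1 at 2 h) and 6 to 8 and 31 to 39 at 4 h, and TrifKO 1 to 2 and 3 to 11 at 2 h and 1 to 3 and 2 to 13 at 4 h. The MyD88KO difference had 0 to 1 and 0 at 2 h and 0 and 0 to 1 at 4 h, and the TrifKO difference 0 to 4 and 1 to 11 at 2 h and 6 to 7 and 5 to 15 at 4 h. In RAW264.7 cells the ranges were 12 to 13 and 38 to 49 (control guide), 10 to 13 and 40 to 46 (guide 1), 11 to 14 and 41 to 47 (guide 2), and at 0 h 2 to 3 and 6 to 13 (guide 1) and 2 to 5 and 3 to 8 (guide 2). Copies under the count filter were not tested, and most groups have 3 libraries.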
